A study of Homo sapiens with 6 samples.

Results

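Glypicans and syndecans are the core proteins that carry heparan sulfate on the cell surface. The rule took the rows of the count files whose Ensembl identifier maps to GPC1 to GPC6 or SDC1 to SDC4 in GENCODE 44 (GRCh38), which gave 10 of the 19977 genes counted, 6 glypicans and 4 syndecans. They were followed in NCRM-1, an established human induced pluripotent stem cell (iPSC) line, grown as aggregates in bioreactors for 4 days from single cells. 3 libraries came from E8 medium with 10 mg/ml polyethylene glycol (PEG) and 0.1 µg/ml heparin sodium salt (HS), and 3 from E8 alone (E8 control). In both media, 50% of the volume was replaced on day 2. A single iPSC line was used, and PEG and HS were only given together. The labels name a treated bioreactor and a control bioreactor and do not say which libraries are separate cultures. With a single vessel per medium, an effect of the vessel cannot be told apart from that of the medium. The p-values below then measure only the spread between these samples, which may be technical.

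A glypican is held in the outer membrane leaflet by a lipid (GPI) anchor, whereas a syndecan spans the membrane and has a short cytoplasmic tail. The sugar chains of both bind FGF2 and other growth factors of the FGF, Wnt, BMP and hedgehog families, and heparin is a more heavily sulfated relative of the same chain. FGF2 is a component of E8 medium, and HS here always stands for heparin sodium salt, never for heparan sulfate.

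The 6 libraries held 26991279 to 36185138 counts, and the ranges of the media overlapped. Levels are given as CPM, the count scaled to a common library size after TMM normalization. Positive log2 fold changes mean that the PEG and HS libraries were higher. Markers of the labelled cell type were abundant in each library, with 8261.2 to 8826.7 summed CPM over 8 pluripotency genes. With PEG and HS, 4 of these were called higher (POU5F1, NANOG, L1TD1 and DPPA4) and 2 lower (SOX2 and LIN28A). The log2 fold change was 0.23 for POU5F1, 0.55 for NANOG, 0.36 for L1TD1, 0.3 for DPPA4, -0.59 for SOX2 and -0.3 for LIN28A. Markers of some other cell types moved with the medium. All 8 neuroectoderm markers (among them SOX1, PAX6 and OTX2) were called lower in PEG and HS, with 41.0 to 45.8 summed CPM against 158.7 to 164.8 in E8 control. Of 6 fibroblast and mesenchyme markers, 4 were called lower (summed CPM 168.3 to 177.2 against 231.3 to 258.3). Of 6 trophectoderm and amnion markers, 5 were tested and 3 called lower (4.33 to 4.82 against 13.2 to 14.0). Of 6 primitive streak and mesoderm markers 1 was called lower (5.87 to 6.05 against 6.19 to 7.79). Of 5 endoderm markers, 3 were tested and 0 called lower (2.90 to 2.94 against 3.52 to 4.26). Beside these counts, 13.1% of all genes tested were called lower and 12.2% higher. CDX2 and SOX17, which define trophectoderm and endoderm, had 3 and 2 counts over the 6 libraries together. The part of these markers in the results below was not tested. In bulk RNA, fewer cells of a type and less RNA per cell cannot be told apart.

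The promoter windows of 3 genes are shown because they span the range found among these genes, from many GC boxes to none: a glypican and a syndecan called lower in PEG and HS, and a glypican that was not called. Each is the RefSeq window of 300 bases, from 250 before to 50 after the annotated start, written 5′ to 3′ on the gene's strand. The windows, in GRCh38.p14, were chrX:133415440-133415739 on the minus strand for GPC4, chr20:45348375-45348674 on the minus strand for SDC4 and chr13:93226557-93226856 on the plus strand for GPC6. Capitals mark every match to the GC box (GGGCGG, or CCGCCC on the other strand) and to the TATA box (TATAAA, or TTTATA on the other strand).
GPC4: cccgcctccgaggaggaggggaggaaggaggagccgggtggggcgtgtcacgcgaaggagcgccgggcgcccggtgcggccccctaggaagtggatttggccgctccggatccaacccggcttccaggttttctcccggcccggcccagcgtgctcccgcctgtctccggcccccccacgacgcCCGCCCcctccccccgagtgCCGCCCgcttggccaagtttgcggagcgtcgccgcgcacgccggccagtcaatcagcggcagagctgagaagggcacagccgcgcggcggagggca
SDC4: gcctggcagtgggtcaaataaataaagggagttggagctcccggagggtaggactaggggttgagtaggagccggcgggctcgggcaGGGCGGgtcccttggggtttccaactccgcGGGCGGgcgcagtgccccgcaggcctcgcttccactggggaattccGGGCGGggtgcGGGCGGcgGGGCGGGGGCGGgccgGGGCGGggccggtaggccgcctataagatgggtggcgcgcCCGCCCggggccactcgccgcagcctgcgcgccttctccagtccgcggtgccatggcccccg
GPC6: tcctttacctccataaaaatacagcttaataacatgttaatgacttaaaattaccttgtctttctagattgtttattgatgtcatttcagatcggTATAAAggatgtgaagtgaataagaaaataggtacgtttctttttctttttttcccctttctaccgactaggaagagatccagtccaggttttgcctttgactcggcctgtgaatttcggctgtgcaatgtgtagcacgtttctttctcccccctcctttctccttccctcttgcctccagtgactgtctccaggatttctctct
The GPC4 window held 2 GC box matches and 37 CpG dinucleotides, the SDC4 window 8 and 33, and the GPC6 window 0 and 6. A pair of adjoining matches in the SDC4 window forms a single run of capitals. Over the 35116 RefSeq windows of this length, 45.0% held a GC box, 11.5% the TATA box letters, and the median window had 14 CpG. A promoter window was found for 8 of the 10 genes, all but GPC3 and SDC2. Of these 8 windows, 7 held a GC box (GPC6 did not), GPC5 and GPC6 held the TATA box letters, and none held the E-box CACGTG (7.26% of all windows). SDC3, GPC1, GPC2, GPC5 and SDC1, which were not called, held 6, 4, 3, 3 and 1 GC box matches. Of the called genes, GPC4 held 2 and SDC4 held 8. The octamer ATGCAAAT or its reverse complement, the letters bound by POU-family factors, stood in the GPC5 window and in 1.77% of all windows. A match is a string of letters and not a measured binding site, and no match says only that these letters are not in this window.

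All 10 genes passed the filter on low counts and were tested. In PEG and HS, 4 were called lower (GPC3, GPC4, SDC2 and SDC4) and 0 higher, by edgeR's quasi-likelihood test at an adjusted p under 0.05 (Benjamini-Hochberg over all 16505 genes tested). Over all genes tested, 13.1% were called lower and 12.2% higher, 25.3% in all. At an unadjusted p under 0.05, 4 of the 10 genes were lower and 2 higher (GPC2 and GPC5). The share of all genes at this unadjusted threshold was not counted, so these numbers cannot be set against it. DESeq2 and limma-voom also called 0 higher. The median log2 fold change of the 10 genes was -0.05, against 0.003 over all genes tested, and it was -0.01 for the glypicans and -0.10 for the syndecans. Each family thus held members that fell and members that were not called.

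**Figure D1:**
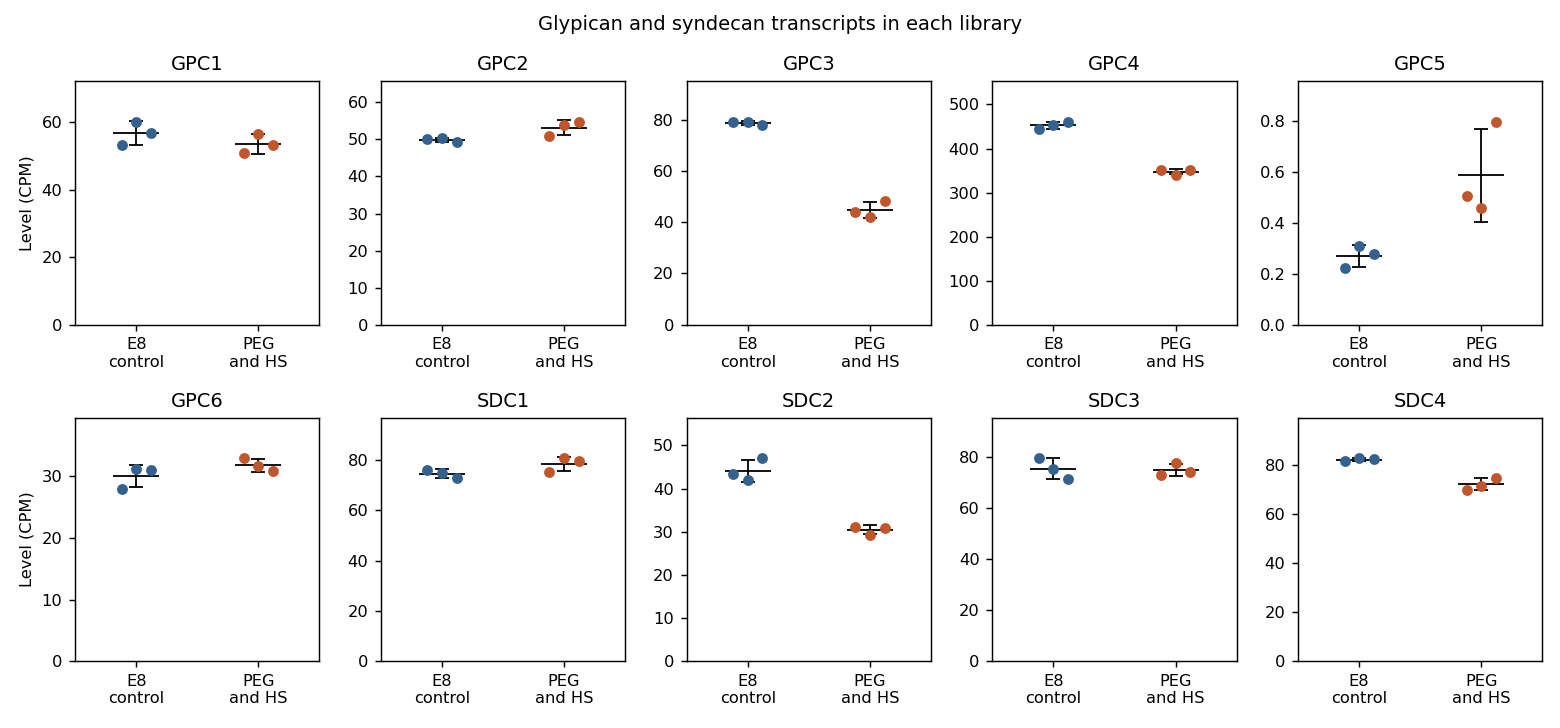
Level in CPM (y axis, from 0, a scale for each gene) of the 6 glypicans and 4 syndecans in the 3 E8 control libraries (blue) and the 3 PEG and HS libraries (orange). Points are libraries, and the bar and whiskers are the mean ± SD; GPC3, GPC4, SDC2 and SDC4 lie lower in each PEG and HS library than in each E8 control library, and GPC5 stays under 1 CPM.

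GPC3 (ENSG00000147257, chromosome X, 133535745 to 133987100) changed most among the called genes. GPC3 encodes a glypican known to restrain hedgehog signalling and growth, and its loss causes the Simpson-Golabi-Behmel overgrowth syndrome. It was measured at 43.8, 42.0 and 48.3 CPM with PEG and HS, against 78.9, 79.2 and 77.8 CPM in E8 control. Every PEG and HS library was lower than every E8 control library. The means were 44.7 ± 3.23 and 78.6 ± 0.757 CPM (SD, n = 3 each), a level 1.76-fold lower in PEG and HS (log2 fold change of -0.81 with SE 0.0442, adjusted p = 2.48e-09, edgeR). Of all genes tested, 93.4% had a smaller absolute log2 fold change.

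GPC4 (ENSG00000076716, chromosome X, 133300103 to 133415489), a glypican known as a modulator of Wnt signalling in pluripotent cells, was also called lower. It had 350.5, 340.6 and 350.7 CPM with PEG and HS, against 444.4, 452.9 and 461.0 CPM in E8 control, again without overlap. The difference of the means, 347.3 ± 5.74 against 452.8 ± 8.32 CPM (SD, n = 3 each), was 1.3-fold (log2 fold change of -0.38 with SE 0.0262, adjusted p = 3.15e-08, edgeR). The 95% intervals of the log2 fold change did not overlap, at -0.906 to -0.718 for GPC3 and -0.439 to -0.327 for GPC4. The ratio of their levels per kb of exon, GPC4 over GPC3, was 5.29, 5.37 and 4.81 in PEG and HS and 3.73, 3.78 and 3.92 in E8 control (exact permutation p = 0.1, two-sided, the smallest that 3 libraries against 3 can give). This ratio was chosen after the values of both genes were known, so its p only restates that the libraries of the media do not overlap.

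SDC2 (ENSG00000169439, chromosome 8, 96493813 to 96611790), the syndecan typical of mesenchymal cells, was at 31.2, 29.3 and 30.9 CPM in PEG and HS. In E8 control it was at 43.4, 42.0 and 47.0 CPM, each value above the 3 of PEG and HS. The means of 30.5 ± 0.994 and 44.1 ± 2.59 CPM (SD, n = 3 each) differed 1.45-fold (log2 fold change of -0.53 with SE 0.0495, adjusted p = 1.03e-06, edgeR). SDC4 (ENSG00000124145, chromosome 20, 45325288 to 45348424), which sits in focal adhesions and binds protein kinase C alpha, changed least of the 4. Its levels were 70.0, 71.5 and 74.8 CPM with PEG and HS, against 81.7, 82.7 and 82.3 CPM in E8 control. The libraries did not overlap, and the means of 72.1 ± 2.43 and 82.2 ± 0.541 CPM (SD, n = 3 each) differed 1.14-fold (log2 fold change of -0.19 with SE 0.0336, adjusted p = 0.000648, edgeR).

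The other 2 syndecans were not called. SDC1 (ENSG00000115884, chromosome 2, 20200797 to 20225433), the syndecan of epithelia and plasma cells, had 75.4, 80.7 and 79.8 CPM with PEG and HS, against 76.2, 75.0 and 72.7 CPM in E8 control. The media overlapped, and the 95% interval of the log2 fold change ran from -0.001 to 0.151 (adjusted p = 0.143, edgeR). SDC3 (ENSG00000162512, chromosome 1, 30869466 to 30908758), known from neural tissue, had 72.7, 77.4 and 74.1 CPM with PEG and HS, against 79.4, 75.4 and 71.4 CPM in E8 control. Its E8 control libraries enclosed those of PEG and HS, with an interval of -0.097 to 0.076 (adjusted p = 0.887, edgeR).

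Of the glypicans, GPC1, GPC2, GPC5 and GPC6 were not called. GPC1 (ENSG00000063660, chromosome 2, 240435663 to 240468076), a co-receptor for FGF2, was at 50.8, 56.5 and 53.1 CPM with PEG and HS, against 53.2, 60.1 and 56.8 CPM in E8 control, with overlap. The interval of its log2 fold change was -0.194 to 0.014 (adjusted p = 0.204, edgeR). GPC2 (ENSG00000213420, chromosome 7, 100169606 to 100177381), a glypican of developing neurons, was at 50.9, 53.8 and 54.8 CPM with PEG and HS, against 50.0, 50.4 and 49.2 CPM in E8 control. The libraries did not overlap, but the gap was small and the test was not passed (log2 fold change of 0.09 with SE 0.0388, adjusted p = 0.1, edgeR). GPC6 (ENSG00000183098, chromosome 13, 93226807 to 94408020), whose loss impairs limb growth in omodysplasia, was at 32.8, 31.6 and 30.7 CPM in PEG and HS. Its E8 control levels of 27.9, 31.0 and 30.9 CPM overlapped these (interval -0.032 to 0.187, adjusted p = 0.309, edgeR). An antisense lncRNA that is not among the genes counted shares 6.8% of the 30-base words of GPC6, the largest share found for any of the 10 genes. Since the strand setting of the counting is not known, reads of the antisense gene cannot be told apart from those of GPC6.

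GPC5 (ENSG00000179399, chromosome 13, 91398621 to 92873682), the glypican grouped with GPC3 in its subfamily, was barely detected. Its counts were 17, 13 and 27 in PEG and HS and 6, 10 and 10 in E8 control, 83 in all. These correspond to 0.587 ± 0.184 and 0.269 ± 0.0433 CPM (SD, n = 3 each), without overlap (log2 fold change of 1.11 with SE 0.396, adjusted p = 0.0524, edgeR). The 95% interval ran from 0.266 to 1.959. Of 13 alternatives, 11 also left GPC5 uncalled. Its adjusted p was 0.12 with DESeq2, 0.0627 with limma-voom and 0.216 with edgeR without PEG and HS replicate 3. The remaining settings put GPC5 on the other side of the threshold, with an adjusted p of 0.0309 under a stricter filter and 0.0497 without TMM scaling (edgeR). In all, libraries did not overlap in 4 of the 10 genes in the lower direction and in 2 in the higher (GPC2 and GPC5), against 19.8% and 19.5% of all genes tested.

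To compare levels between genes, CPM were divided by the length of the gene's merged exons in kb. On this scale, GPC4 led in both media with 91.3 ± 1.68 CPM per kb in E8 control and 70.0 ± 1.16 in PEG and HS (SD, n = 3 each). SDC4 was next, with 31.5 ± 0.207 and 27.6 ± 0.929 CPM per kb. GPC5 was last, with 0.0763 ± 0.0123 and 0.166 ± 0.052 CPM per kb. In between, the order was GPC3, SDC1, GPC2, SDC2, SDC3, GPC1 and GPC6 in E8 control and SDC1, GPC2, GPC3, SDC3, GPC1, SDC2 and GPC6 in PEG and HS. GPC3 therefore moved from the third to the fifth place and SDC2 from the sixth to the eighth. Neighbours in the order had separate ranges except SDC2 and SDC3 in E8 control and GPC2 and GPC3 in PEG and HS.

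GPC4 made up 42.1% to 43.1% of the length-scaled level of the 10 genes in E8 control and 38.9% to 40.3% in PEG and HS. The share of GPC3 was 11.0% to 11.3% in E8 control and 7.25% to 8.12% in PEG and HS. SDC1, whose level was not called, had 9.32% to 9.91% of the total in E8 control and 11.9% to 12.6% with PEG and HS. Shares of a total are tied to each other. Summed over the 10 genes, the length-scaled level was 177.7 ± 3.02 CPM per kb in PEG and HS and 214.9 ± 1.57 in E8 control (SD, n = 3 each). The glypicans gave 110.3 ± 1.88 and 141.2 ± 2.09 of these, and the syndecans 67.4 ± 1.61 and 73.6 ± 0.527. Without GPC4 the sums were 107.7 ± 2.84 and 123.6 ± 0.722 CPM per kb. Merged exons can be longer than the transcript in use, so the order holds for this length only.

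**Figure D2:**
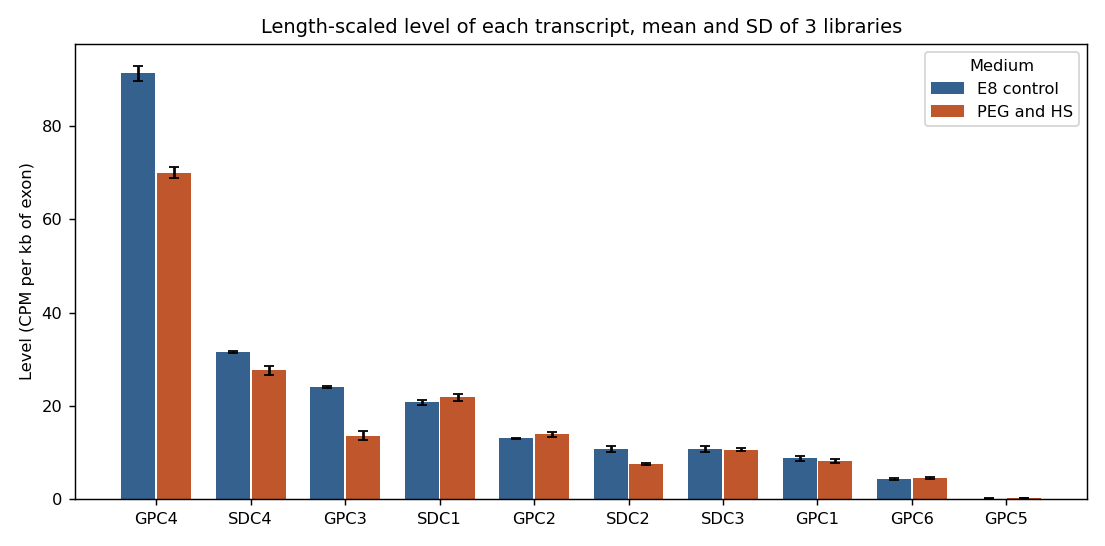
Length-scaled level (y axis, CPM per kb of merged exon, from 0) of the 10 genes in E8 control (blue) and PEG and HS (orange). Bars are means and whiskers SD of 3 libraries; GPC4 stands at 91.3 in E8 control and 70.0 in PEG and HS, and no other gene exceeds 31.5.

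4 of the glypican genes lie in pairs on their chromosome. GPC4 and GPC3, called lower, follow each other on the minus strand of chromosome X, and GPC5 and GPC6, not called, on the plus strand of chromosome 13. Within 1000 kb of the GPC4 and GPC3 pair, 9 other genes were tested, of which 3 were called lower and 0 higher, beside 13.1% and 12.2% of all genes tested. They were MBNL3 (an RNA splicing regulator, log2 fold change -0.70, SE 0.0708), HS6ST2 (-0.32, SE 0.0941) and CCDC160 (-0.56, SE 0.124), with adjusted p of 2.46e-06, 0.0215 and 0.00352 (edgeR). The call of HS6ST2 was lost without E8 control replicate 3 (log2 fold change -0.18, adjusted p = 0.129), without PEG and HS replicate 1 (adjusted p = 0.0682) and without PEG and HS replicate 2 (adjusted p = 0.0548, all edgeR). HS6ST2 encodes a 6-O-sulfotransferase that acts on heparan sulfate itself. The 6 genes from PHF6 to MOSPD1, all farther from GPC4 than CCDC160, were not called. Around GPC5 and GPC6, 1 of 4 tested neighbours was called, a share near the 25.3% of all genes tested. It was SOX21, a neural transcription factor (log2 fold change of -2.51 with SE 0.0639, adjusted p = 4.92e-13, edgeR). MBNL3, HS6ST2, CCDC160 and SOX21 are named for their position, after their values were seen.

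**Figure D3:**
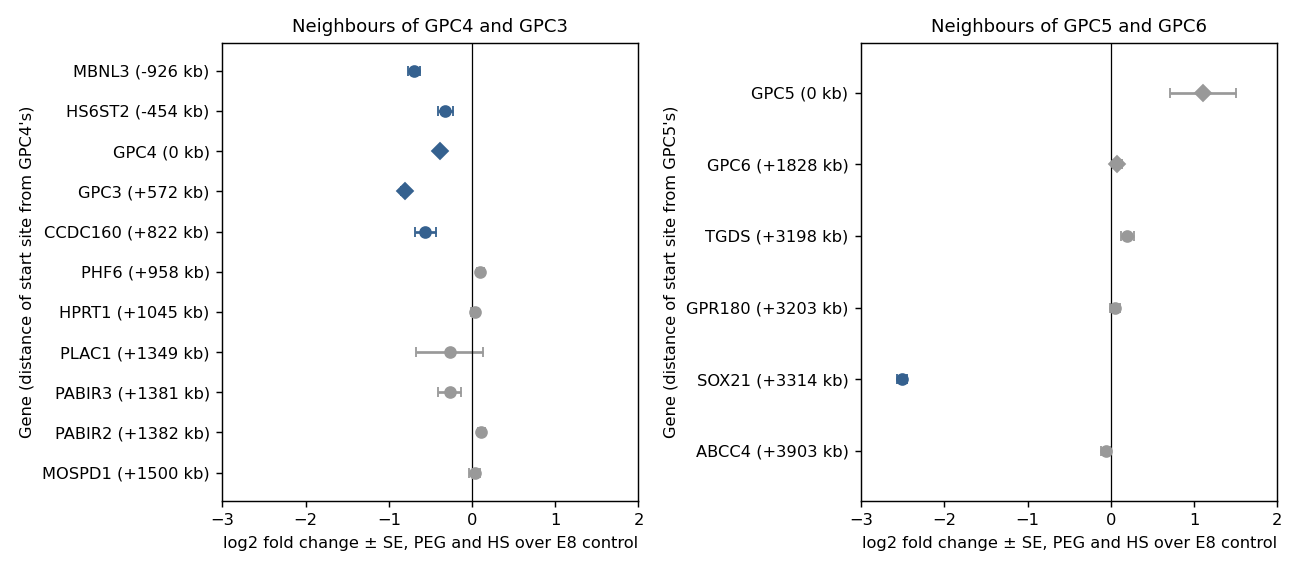
Log2 fold change of PEG and HS over E8 control (x axis, whiskers ± SE) for tested genes within 1000 kb of the GPC4 and GPC3 pair (left) and the GPC5 and GPC6 pair (right), in order of their start sites, with the distance in kb from the start of GPC4 or GPC5. Diamonds are the glypicans and blue marks genes called lower; on the left MBNL3, HS6ST2 and CCDC160 are blue beside both glypicans and 6 genes are grey, and on the right SOX21 is blue.

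The patterns of the 4 called genes were close to each other across the 6 libraries. Among 63 candidates (the other members and the tested pathway genes below), the gene most like GPC3 was GPC4 (Pearson's r of log2 CPM 0.99, n = 6 libraries), followed by GLCE (0.988). For GPC4 it was PXYLP1 (0.993) and then GPC3 (0.99). SDC2 was most like GPC4 (0.99) and PXYLP1 (0.989), and SDC4 most like GPC3 (0.981) and PAPSS1 (0.973). The 6 libraries fall into the 2 media, so these r mainly rank genes by how cleanly they separate the media.

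The chains on these core proteins are built and edited by other enzymes. A wider list of 56 genes around these chains was followed, with 54 tested. Beside genes of chain synthesis, sulfate supply and editing, it held 10 other chain-carrying proteins and 8 genes listed as partners of the syndecan tail or as their links to the cytoskeleton. In PEG and HS, 18 were called lower and 9 higher (33.3% and 16.7% of those tested, against 13.1% and 12.2% of all genes tested, edgeR). The lists were chosen with earlier results of these data known, and all genes tested include genes with as few as 10 counts in all. The difference in shares is therefore a description and was not tested. The median log2 fold change of the 54 tested genes was -0.08, against 0.003 over all genes tested. The counts by group below stand beside the same 13.1% and 12.2%. Some lie near these shares, such as 14.3% of the linkage genes and 12.5% of the syndecan tail group called higher. All 27 called genes are named here, and 8 of them lost the call in at least 1 alternative (B4GALT7, B3GALT6, EXTL2, HS3ST4, HS6ST2, SPOCK3, TGFBR3 and TIAM1).

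Synthesis of a chain starts with a linker of sugars on the core protein. Of 7 linkage genes, 3 were called lower and 1 higher (median log2 fold change -0.02). PXYLP1, a phosphatase that acts on the linker xylose, had the largest change of these at 22.5 ± 0.196 CPM with PEG and HS, against 32.7 ± 0.827 CPM in E8 control (SD, n = 3 each; log2 fold change of -0.54 with SE 0.0462, adjusted p = 4.35e-07, edgeR). XYLT1, a xylosyltransferase that adds the first sugar, fell by 0.28 on the log2 scale (SE 0.0433, adjusted p = 0.000211), while XYLT2, its paralog, was not called (log2 fold change 0.07, adjusted p = 0.318). B3GALT6 was called lower (-0.17, adjusted p = 0.0257) and B4GALT7 higher (0.17, adjusted p = 0.0431, edgeR). Both add galactose to the linker. The call of B4GALT7 was lost in 5 of the 6 fits that each left out a library (adjusted p 0.0646 to 0.148) and that of B3GALT6 in 4 of them (0.0614 to 0.0882, edgeR).

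Of the 5 genes of chain polymerisation, 1 was called lower and 2 higher (median log2 fold change -0.01). EXT2, which forms the copolymerase with EXT1, was called lower (log2 fold change of -0.17 with SE 0.0337, adjusted p = 0.00136) and EXT1 was not (-0.01, adjusted p = 0.87, edgeR). EXTL3, which adds the first glucosamine, was called higher (0.15, SE 0.0297, adjusted p = 0.00159), as was EXTL2 (0.14, adjusted p = 0.0286, lost without PEG and HS replicate 1 or E8 control replicate 2, edgeR). Of 4 N-deacetylase/N-sulfotransferase genes, NDST4 was under the filter and NDST1, with 176.7 ± 3.05 CPM with PEG and HS, against 194.5 ± 1.70 CPM in E8 control, was called lower (log2 fold change of -0.14 with SE 0.0271, adjusted p = 0.00136, edgeR).

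The epimerase and O-sulfotransferases were the longest list, with 6 of 12 called lower and 1 higher (median log2 fold change -0.24). These are 50.0% and 8.33%, beside 13.1% and 12.2% of all genes tested. The largest changes among the called genes were of 3-O-sulfotransferases, which add the rarest sulfate of the chain. HS3ST2 was at 2.08 ± 0.167 CPM with PEG and HS, against 3.81 ± 0.804 CPM in E8 control (log2 fold change of -0.86 with SE 0.17, adjusted p = 0.00154), HS3ST3B1 at 3.40 ± 0.378 and 5.17 ± 0.490 CPM (-0.61, SE 0.123, adjusted p = 0.00185), and HS3ST5 at 4.87 ± 0.894 and 7.03 ± 0.229 CPM (-0.52, SE 0.116, adjusted p = 0.00381, edgeR). HS3ST4, of the same family, was called higher (log2 fold change 0.28, adjusted p = 0.016, edgeR). HS3ST1, HS3ST3A1 and HS3ST6 were not called. HS3ST1 had a positive log2 fold change of 0.67 (SE 0.27, adjusted p = 0.0855, edgeR), with libraries that did not overlap. HS3ST6 had 5, 2 and 3 counts with PEG and HS, against 0, 1 and 0 in E8 control (adjusted p = 0.0695, edgeR). HS3ST3A1 had a log2 fold change of -0.24 (adjusted p = 0.197, edgeR). Named after their values were seen, GLCE, the epimerase (-0.41, adjusted p = 2.77e-05), and HS6ST1 (-0.24, adjusted p = 0.000162) were also lower, whereas HS2ST1, the only 2-O-sulfotransferase, was not called (0.09, adjusted p = 0.176, edgeR). Of 5 genes that supply sulfate, PAPSS1, a synthase of the sulfate donor, was called lower (-0.12, SE 0.0304, adjusted p = 0.00796) and 4 were not called (median of the 5 -0.09, edgeR).

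Of the 5 genes listed under chain editing and release, 2 were called higher and 0 lower (median log2 fold change -0.07), beside 12.2% and 13.1% of all genes tested. SULF2, HPSE2 and NOTUM were not called, with log2 fold changes of -0.07, -0.32 and -0.39. SULF1, an extracellular enzyme that removes 6-O-sulfate from finished chains, was at 28.5, 29.9 and 30.5 CPM with PEG and HS, against 20.9, 21.6 and 17.8 CPM in E8 control. Its libraries did not overlap (log2 fold change of 0.56 with SE 0.0657, adjusted p = 1.18e-05, edgeR). Its paralog SULF2 was not called (32.5 ± 1.92 and 33.9 ± 1.49 CPM, SD, n = 3 each; log2 fold change -0.07, adjusted p = 0.41, edgeR). HPSE, the heparanase that cuts the chains, was higher at 4.58 ± 0.372 against 3.30 ± 0.301 CPM (log2 fold change of 0.46 with SE 0.122, adjusted p = 0.0113, edgeR). NOTUM, also on this list, had 0.564 ± 0.0602 and 0.741 ± 0.0633 CPM and was not called (adjusted p = 0.37, edgeR).

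Of 10 other genes whose proteins can carry heparan sulfate or related chains, 4 were called lower, 2 higher, and SRGN was under the filter (median log2 fold change of the 9 tested -0.15). AGRN (agrin, of basement membranes) was at 219.2 ± 6.53 CPM with PEG and HS, against 291.2 ± 7.12 CPM in E8 control (SD, n = 3 each; log2 fold change of -0.41 with SE 0.03, adjusted p = 6.94e-08, edgeR). NRP1, a co-receptor for semaphorins and VEGF, was at 0.672 ± 0.0631 and 1.92 ± 0.437 CPM (-1.51, SE 0.243, adjusted p = 0.000273). TGFBR3 (betaglycan) was called lower (-0.25, adjusted p = 0.0227), and HSPG2 (perlecan), named after its values were seen, too (-0.15, adjusted p = 0.0014). The testicans SPOCK1 (0.26, SE 0.0632, adjusted p = 0.0067) and SPOCK3 (0.68, SE 0.227, adjusted p = 0.0406, edgeR) were called higher. COL18A1, which encodes a basement membrane collagen, was not called (0.03, adjusted p = 0.36, edgeR).

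Of 8 partners of the syndecan tail and their links to the cytoskeleton, 2 were called lower and 1 higher (median log2 fold change -0.04). EZR (ezrin) was at 248.5 ± 1.30 and 290.1 ± 7.40 CPM (log2 fold change of -0.22 with SE 0.0272, adjusted p = 1.83e-05), TIAM1, an activator of RAC1, differed by -0.13 (adjusted p = 0.0226), and SYNJ2 by 0.23 (SE 0.0549, adjusted p = 0.00533, edgeR). The direct partners SDCBP (syntenin, 0.07, adjusted p = 0.136), CASK (-0.03, adjusted p = 0.635) and GIPC1 (-0.01, adjusted p = 0.815) were not called, nor was PRKCA (-0.06, adjusted p = 0.344, edgeR), the kinase that binds SDC4.

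**Figure D4:**
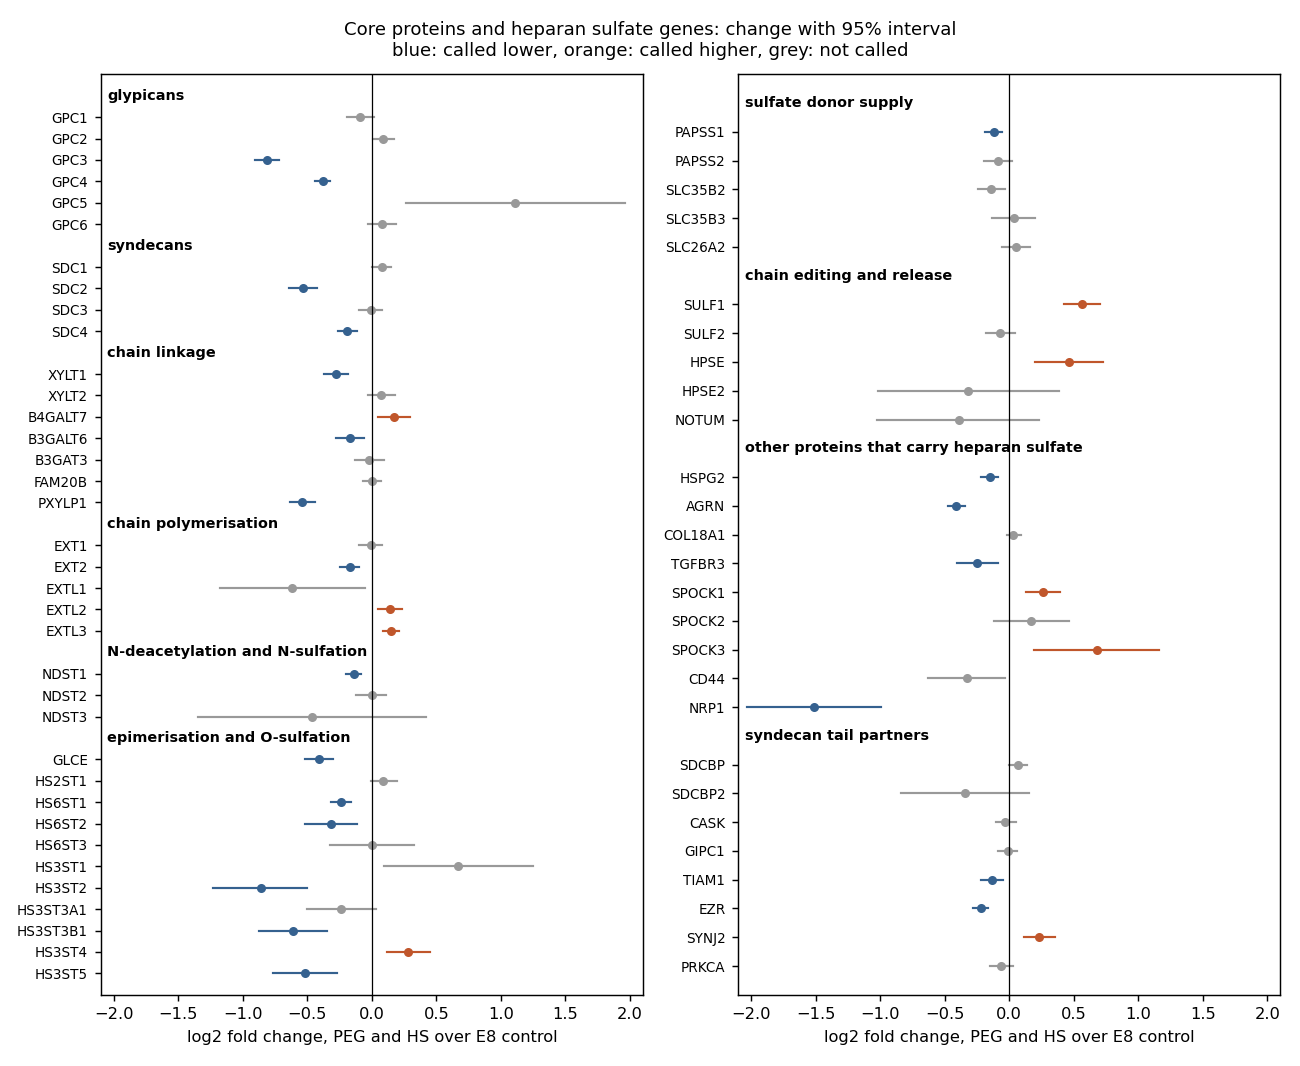
Log2 fold change of PEG and HS over E8 control (x axis) with its 95% interval for the 10 core proteins and the pathway genes tested, grouped by role; genes with fewer than 30 counts in all (HS3ST6) are left out. Blue marks genes called lower, orange higher and grey not called. Of the 10 glypicans and syndecans 4 are blue, and of the 5 genes of chain editing and release 2 are orange. Of all genes tested, 13.1% were called lower and 12.2% higher.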

How the data were processed

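The deposited files hold raw gene counts, 1 file for each of 6 libraries. By the submitters' processing notes and the methods of the study, the authors trimmed the reads of stranded poly(A) libraries with Trim Galore 0.6.7 and aligned them to GRCh38 with STAR 2.6.1 in the nf-core/rnaseq pipeline. The counting tool, its strand setting and its rule for reads that match several places are not given in the sources used here, so reads shared between similar sequences could be lost or split. Groups follow the treatment label. The treatment protocol text describes PEG and heparin for all 6 libraries, and the label was followed. Of 19977 identifiers, 19916 matched GENCODE 44.

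The 16505 genes whose counts summed to 10 or more were tested in 1 fit with edgeR 4.0.16 in R 4.3.3 (TMM, quasi-likelihood F test, two-sided, Benjamini-Hochberg over all genes tested, called at an adjusted p under 0.05). The median log2 fold change of all genes tested was 0.003. SE was obtained by dividing the size of the log2 fold change by the root of the F statistic. The script was tested on simulated counts. All 10 glypicans and syndecans are named, and of each pathway list up to 3 called genes in each direction that reach 1 CPM in all 3 libraries of the medium where they are higher. Likeness was computed on log2(CPM + 0.1). The members and lists were chosen with earlier results of these data known. Alternatives were DESeq2 1.42.0, limma-voom (limma 3.58.1), DESeq2 size factors, library size alone, 2 other filters, a replicate block and leaving out each library. Intervals of fold changes rest on 3 libraries per medium.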

Additional observations from a re-analysis of the deposited data

How the results depend on the processing

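GPC3, GPC4, SDC2 and SDC4 were called lower under all 13 alternatives, with log2 fold changes of -0.87 to -0.77, -0.40 to -0.37, -0.57 to -0.48 and -0.22 to -0.17. The count of members called higher was 0, but 1 (GPC5) with library size alone (log2 fold change 1.12, adjusted p = 0.0497) and 1 with edgeR's filterByExpr (1.11, adjusted p = 0.0309, both edgeR). Leaving out a library gave GPC5 0.82 to 1.25. SDC3 turned from -0.01 to 0.01 without PEG and HS replicate 1 and to 0.02 without E8 control replicate 1 (range -0.05 to 0.02), and the cause was not tested. Pathway genes called lower numbered 14 to 19 and higher 6 to 10 (DESeq2 16 and 6, leave-one-out 14 to 18 and 6 to 7). Calls of HS3ST4, SPOCK3, TGFBR3, B4GALT7 and B3GALT6 were lost with DESeq2 and those of B4GALT7 and SPOCK3 with the replicate block. Leaving out a library lost TIAM1 (PEG and HS 1 or 2, E8 control 2 or 3, adjusted p 0.0569 to 0.09), HS3ST4 (PEG and HS 3, E8 control 1 or 3, 0.0564 to 0.0603), TGFBR3 (PEG and HS 1 or 3, E8 control 3, 0.0611 to 0.095), SPOCK3 (all but E8 control 3, 0.0587 to 0.149), B4GALT7 (all but E8 control 1, 0.0646 to 0.148), B3GALT6 (PEG and HS 1 or 2, E8 control 1 or 2, 0.0614 to 0.0882) and EXTL2 (PEG and HS 1 or E8 control 2, 0.136 to 0.153, all edgeR).

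Same-numbered libraries did not deviate together over all genes (r 0.023, 0.015 and -0.009 over 14827 genes). Of 6 libraries, 3 correlated best with their own number. These r cannot show that same-numbered libraries were unpaired, and the labels do not say. With the replicate block, 4444 of all genes tested were called, against 4173 without it. With the replicate block, members called stayed at 0 higher and 4 lower, and pathway genes called higher numbered 7, against 9 without it. Depth limits GPC5 alone among the members, since every other member had at least 754 counts in each library.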
